A study of Mus musculus with 15 samples.

Results

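The gene-end regions common to liver, spleen and thymus were 366 of the 4137 distinct genomic regions that the authors listed for p53 chromatin immunoprecipitation sequencing (ChIP-seq) in mouse organs. A region belonged to the set when the same start and end stood in all 3 organ lists and an end of an annotated mouse gene lay no more than 1 kb from its midpoint (RefSeq, GRCm38, the assembly that mm10 names). The members were thus chosen by the authors' own region calls in all 3 organs and by position. Of the 1930 regions present in all 3 lists, the other 1564 lay farther from any gene end and are called distal here.

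In ChIP-seq, DNA bound by a protein is recovered with an antibody and sequenced. The labels give wild-type mice and 15 libraries, 5 per organ. These were 2 from untreated animals, 2 from animals given X-rays (2 Gy, sampled at 3 h), and 1 input library of chromatin that saw no antibody. The sources used here give no age, strain or antibody. The authors deposited 1 region list per organ, which the labels attach to all 5 libraries of that organ and whose name refers to irradiation and IgG, so the lists cannot be read as irradiated or untreated.

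The lists held 3872 regions in liver, 2604 in spleen and 2405 in thymus, all drawn from 1 shared set of coordinates. Each region carries a score, the authors' own value, whose scale is not given. Scores were therefore turned into percentiles within each organ's list, with 100 the strongest, and where 3 percentiles follow each other they are those of liver, spleen and thymus in that order. With 1 list per organ there is no spread between replicates and read depth is unknown, so every comparison here describes these lists and none was tested.

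The transcription factor p53, encoded by Trp53, is stabilised after DNA damage and binds a response element made of a pair of decamers, with CATG the best-known core of each. Its targets stop the cell cycle, start apoptosis or repair DNA, and spleen and thymus lose many more cells to irradiation than liver does. Promoters of widely used genes usually lie in CpG-rich DNA and often carry sites for general activators such as NRF1, a factor that drives genes of mitochondria and cell growth and that recognises a GC-rich palindrome.

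Response elements found in the promoter windows of p53 targets and of the top-ranked members are shown first, because p53 is the protein that was pulled down. The regions that hold them range from the top of all 3 lists (Bbc3) to below the middle of each (Wrap53). The windows run from 250 bases before to 50 bases after an annotated start (RefSeq, GRCm38.p6). Capitals mark the 20-base element, and 5 bases stand on each side.
Cdkn1a: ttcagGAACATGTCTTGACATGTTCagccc
Gm51651: ccatcAGACATGCCCAGGCATGTCTtcctc
Ccng1: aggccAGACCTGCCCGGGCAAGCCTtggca
Gtse1: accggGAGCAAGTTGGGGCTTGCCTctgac
Rps19: gcgagCGGCAGGCCCGGACATGCCTgatcg
Ckap2: aggctTGACAAGTCAGGACATGTCTtcaga
Zfp365: tagcaAGACTAGGCTGGGCAAGACTggcac
Bbc3: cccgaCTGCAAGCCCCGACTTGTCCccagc
Aen: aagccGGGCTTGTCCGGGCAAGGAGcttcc
Wrap53: cgccaTAACAAGTAAGGGCAAGTCCttccg

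The Cdkn1a stretch lies at chr17:29090923-29090952 on the plus strand, and its element begins 51 bases before the start and departs from the consensus at 1 base. Gm51651, a noncoding gene, has the only element in this group without a mismatch, at chr1:155056319-155056348 on the plus strand. Ccng1 has 1 mismatch, at chr11:40755457-40755486 on the minus strand. The Gtse1 element, with 1 mismatch, spans the start itself, at chr15:85859940-85859969 on the plus strand. Rps19 has 2 mismatches, at chr7:24884798-24884827 on the plus strand. Ckap2 and Zfp365 also have 2 each. The Ckap2 stretch is at chr8:22185998-22186027 on the plus strand, in the window of the neighbouring noncoding gene Gm29878. The Zfp365 stretch is at chr10:67912701-67912730 on the minus strand. Bbc3, Aen and Wrap53 have 3 mismatches each. Bbc3 lies at chr7:16309481-16309510 and Aen at chr7:78895932-78895961, both on the plus strand. The Wrap53 stretch, at chr11:69580279-69580308 on the minus strand, sits between the divergent starts of Wrap53 and Trp53. All 10 elements lay whole inside the listed region.

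NRF1 cores are shown for contrast, because the core was found more often in windows of members whose liver percentile exceeded the mean of the lymphoid ones by at least 25 points than in the others. The 5 genes below all belong to that group. Capitals mark the 8-base core GCGCATGC or its reverse complement, again with 5 bases on each side.
Vapb: accctGCGCATGCgcagt
Cdt1: gcatgGCGCATGCgtctc
Cdt1, the next core: ctagcGCGCATGCcccgg
Polh: ccacgGCGCATGCgcgcg
Polh, the next core: gcgctGCGCATGCgccgg
Mrpl32: ggcctGCGCATGCtctga
Apaf1: ccaccGCGCATGCgagaa

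The Vapb stretch lies at chr2:173737471-173737488 on the plus strand, and its core begins 95 bases before the start. Cdt1 has cores in stretches at chr8:122567898-122567915 and chr8:122567926-122567943 on the plus strand. Those of Polh are at chr17:46202723-46202740 and chr17:46202746-46202763 on the minus strand. The Mrpl32 stretch is at chr13:14613091-14613108 and the Apaf1 stretch at chr10:91082844-91082861, both on the minus strand. Each of these cores lay inside its listed region.

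The members as a whole ranked above the middle of the liver list and below the middle of both lymphoid lists. The latter did not hold with regions near the score floor left out, a rule that itself takes away low ranks. The median score percentile of the 366 members was 63.9 in liver (quartiles 36.3 and 89.5), 36.7 in spleen (15.3 and 66.6) and 32.6 in thymus (14.9 and 63.3). The 1564 distal regions had medians of 49.3, 61.6 and 59.9 in the same order. Per region, the liver percentile minus the mean of spleen and thymus had a median of 17.5 points in members and -8.38 points in distal regions. The member value was 29.6 points with a window of 500 bp, 6.96 with 2 kb, and 4.86 over the 205 members whose score was at least 10 in every list (-8.17 for distal regions under that rule). Over those 205 the medians were 58.5 in spleen and 56.3 in thymus, above the middle of both lists. The percentiles remain those of the whole lists, so leaving out low scores can raise these medians by construction. In raw scores, the members' medians were 23.8 (liver), 16.4 (spleen) and 13.0 (thymus), and the lists start at about 7. Scores under 10 were held by 20 liver (5.46%), 86 spleen (23.5%) and 118 thymus values (32.2%) of the members, against 6.84%, 3.13% and 8.63% of the distal regions.

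**Figure D1:**
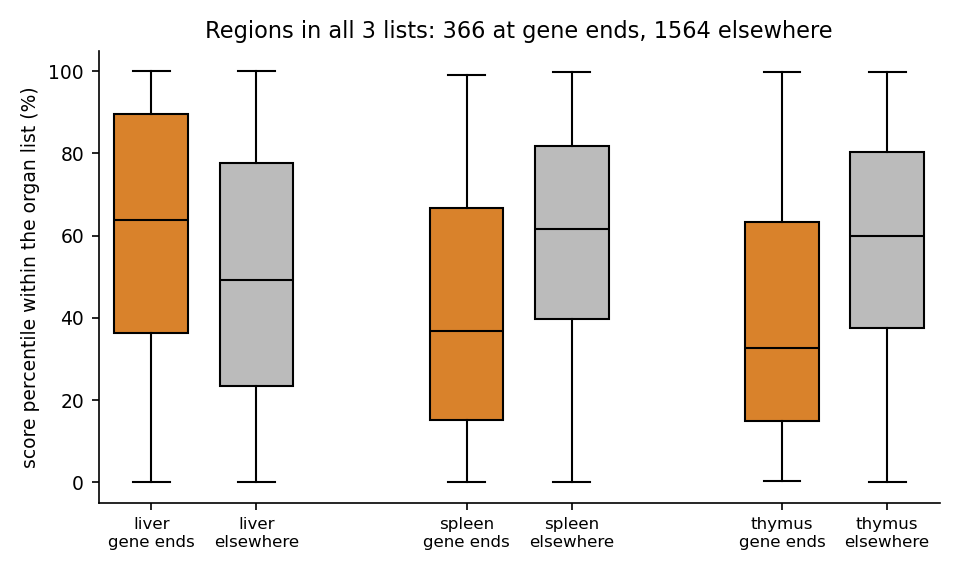
Box plots of the score percentile (vertical axis, percent) within each organ's list for the regions of all 3 lists, split into the 366 at gene ends and the 1564 elsewhere; the box gives the quartiles, the line the median and the whiskers the full range. The gene-end median is 63.9 in liver and 36.7 and 32.6 in spleen and thymus, whereas elsewhere it is 49.3, 61.6 and 59.9.

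The top 10% of the liver list was richer in members than those of spleen and thymus. A percentile of at least 90 was reached by 87 members in liver (23.8%), where 9.99% of the whole list reach it by construction. In spleen it was reached by 27 (7.38%, against 9.98% of the list), and in thymus by 28 (7.65%, against 10% of the list). Of the 87 members in liver, 65 were in the top 10% of neither lymphoid list (17.8% of members, against 8.29% of all common regions). In the top 10% of both lymphoid lists and not of liver were 4 members (1.09%, against 2.44%). These were Gm32600, Psrc1, Gm15610 and Gm46115, named here for that count. In all, 13 members were in the top 10% in all 3 organs (3.55%), close to the 3.42% of all regions common to the lists.

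Members were then grouped by whether the liver percentile stood at least 25 points above or below the mean of the lymphoid percentiles. The liver-high group had 163 members (44.5%, against 19.7% of all regions in the 3 lists and 13.9% of distal regions). With a score of at least 10 required in every list, 61 of 205 members were liver-high (29.8%). That rule takes out low lymphoid scores, and the distal share under it was not computed. The lymphoid-high group had 47 (12.8%, against 26.6% of all and 29.9% of distal regions), and 156 were level. The liver percentile was above both lymphoid percentiles in 217 members (59.3%, against 34.2% of all regions in the 3 lists). It was below both in 91 (24.9%, against 44.1%). Between the lymphoid organs, spleen stood at least 25 points above thymus in 50 members (13.7%, against 16.9%) and thymus above spleen in 34 (9.29%, against 12.3%). Across the 366 members, Spearman's rho was 0.687 between spleen and thymus, 0.213 between liver and spleen and 0.046 between liver and thymus. Across the distal regions these were 0.516, 0.324 and 0.287. The 3 lists share their coordinates, and region width moved with score (rho 0.647 (liver), 0.386 (spleen) and 0.236 (thymus) for members), so these coefficients are descriptions.

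**Figure D2:**
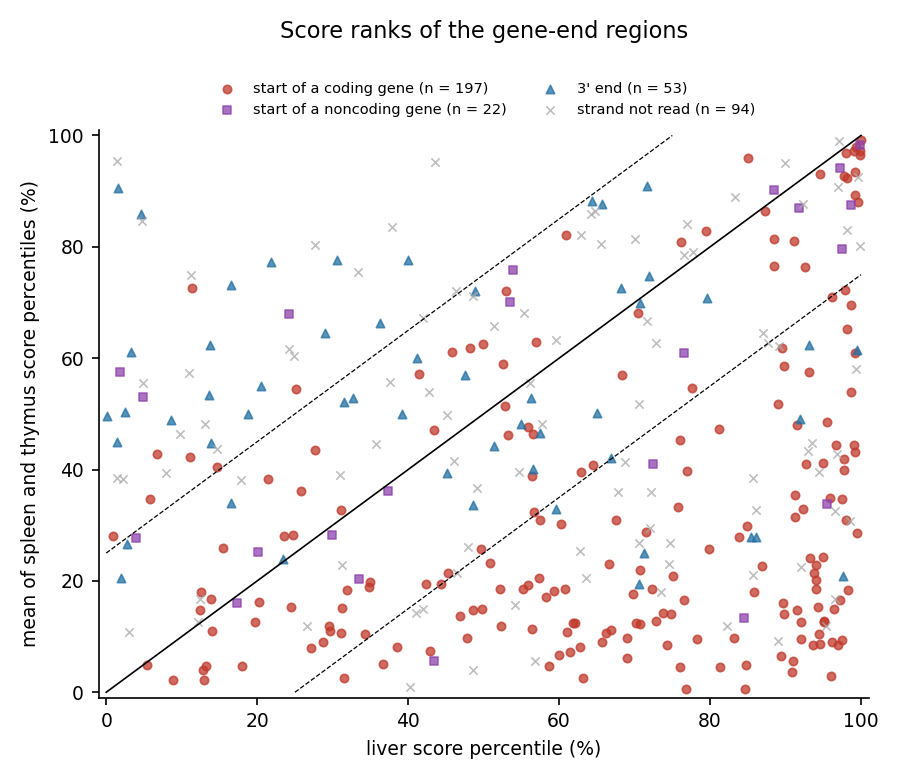
Liver score percentile (horizontal, percent) against the mean of the spleen and thymus percentiles (vertical, percent) for the 366 members, marked by the kind of gene end; the solid line is equality and the dashed lines are 25 points away from it. Coding starts fill the lower right, where 116 of 197 are liver-high, and 3' ends lie more often above the line, with 18 of 53 lymphoid-high.

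The kind of gene end separated the ranks. The strand of a gene was read from the promoter table, which held 54.1% of all genes and 79.9% of coding ones. On that basis 197 members lay at the start of a coding gene, 22 at the start of a noncoding gene but of no coding gene, and 53 at a 3' end without a start. A member near both a start and a 3' end, such as that of Cox6b2, was counted at the start. For 94 the strand was not read. Members at coding starts had median percentiles of 70.7 in liver and 23.6 and 19.8 in spleen and thymus, with 116 liver-high (58.9%) and 7 lymphoid-high (3.55%). Members at 3' ends had medians of 45.1, 56.5 and 53.2, with 9 liver-high and 18 lymphoid-high, and 0 of 53 were in the top 10% of all 3 lists. Members at noncoding starts were near the middle in each organ, with medians of 53.7, 53.2 and 54.3.

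Seen from the other side, 116 of the 163 liver-high members were at coding starts (71.2%), and a coding gene was the nearest named gene for 144. Of the 47 lymphoid-high members, 7 were at coding starts, 18 at 3' ends and 21 were named by a coding gene. Names over all members were 271 coding genes, 67 long noncoding RNAs, 22 pseudogenes, 2 transcribed pseudogenes, 2 tRNA and 2 snoRNA genes. The midpoint lay inside a gene in 208 members. Whether a midpoint was exonic or intronic was not analysed here.

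Distance to the start followed the same order. An annotated start lay within 1 kb of 122 liver-high members (74.8%), 84 level members (53.8%) and 11 lymphoid-high members (23.4%). Starts came from the promoter table alone, so a gene missing from it counts as having no start near. The strand was not read for 34 liver-high (20.9%), 41 level (26.3%) and 19 lymphoid-high members (40.4%). How far missing starts shape this order was not tested. Within 100 bp of a start were 78 of 163 liver-high members (47.9%), 31 of 156 level members (19.9%) and 1 of 47 lymphoid-high members (2.13%, AU040972, a noncoding gene). Over the 217 members with a start within 1 kb, 144 midpoints lay upstream of it.

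**Figure D3:**
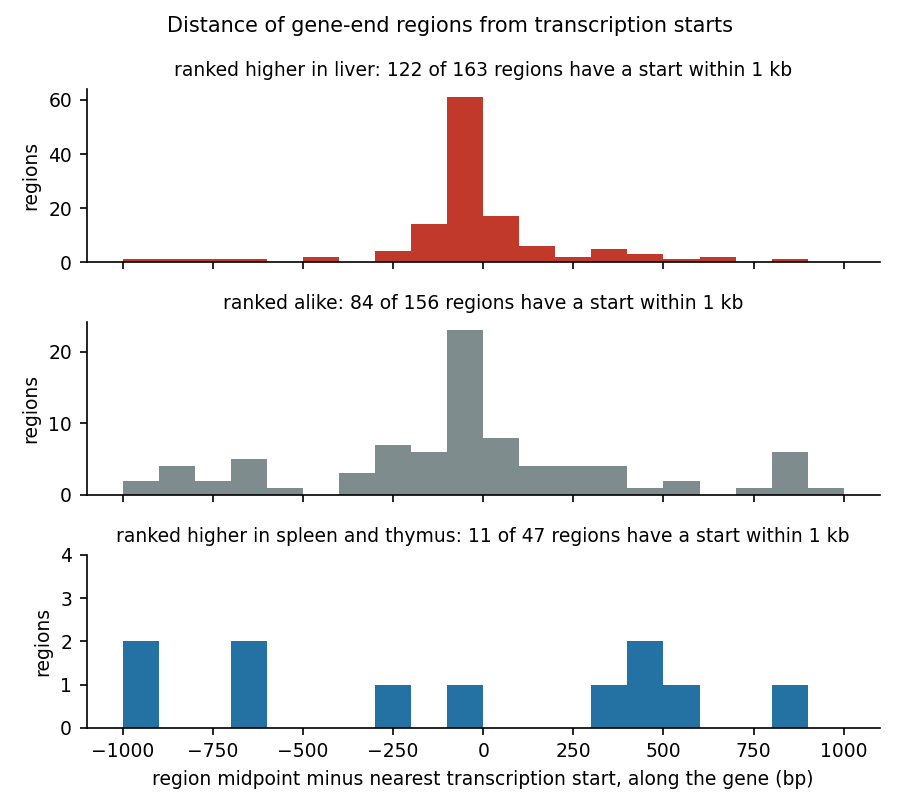
Histograms of the distance from the nearest annotated transcription start to the region midpoint, along the direction of the gene in bp (horizontal), with the number of regions per 100 bp (vertical, a separate scale in each panel) for the liver-high, level and lymphoid-high members. Liver-high members pile up just before the start, with 78 of 163 within 100 bp, whereas 1 of 47 lymphoid-high members is that close. Starts missing from the promoter table could not be counted.

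Some members lay at ends of several genes, without a background share computed for this. There were 77 members at the ends of 2 or more genes and 41 at the ends of 2 coding genes. Of those 41, 28 lay between divergent starts, 4 between convergent ends, 2 at a start and an end, and for 7 the strand was not read. Of the 28 divergent promoters 20 were liver-high (71.4%, against 58.9% of all members at coding starts), 8 were level and 0 were lymphoid-high. Examples were the starts of Sdf4 and B3galt6, with 99.4 (liver), 36.4 (spleen) and 20.9 (thymus), and of Jmjd4 and Snap47, with 72.3, 1.63 and 35.6. The pair of Sprtn, a protease that removes protein crosslinks from DNA, and Exoc8 had 98.3, 27.8 and 9.06. These 3 pairs, all liver-high, were picked after their values were seen.

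Known p53 targets were the main named group of members. Of 118 coding genes in 6 lists of p53 targets, 29 had a member at an end (24.6%), against 309 of all 21887 coding genes (1.41%). The lists were chosen with earlier results of these data known, which can raise this share. The 29 target genes had 29 regions, since Trp53 and Wrap53 share 1 and Rap2b has 2. Their median percentiles were 89.1 in liver and 70.7 and 56.3 in spleen and thymus. The 170 members at coding starts outside these lists had 69.6, 21.6 and 17.5. The strand of Trp53inp1 and Pmaip1 was not read, so their target regions are not among the coding starts. In the target group 10 regions were liver-high, 19 level and 0 lymphoid-high, and 6 were in the top 10% of all 3 lists. Among the 170 coding starts outside the lists 106 were liver-high, 7 lymphoid-high and 3 (Rps19, Exoc4 and Zfp958) in the top 10% throughout. The median width was 550 bp in the target group and 250 bp in the other.

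**Figure D4:**
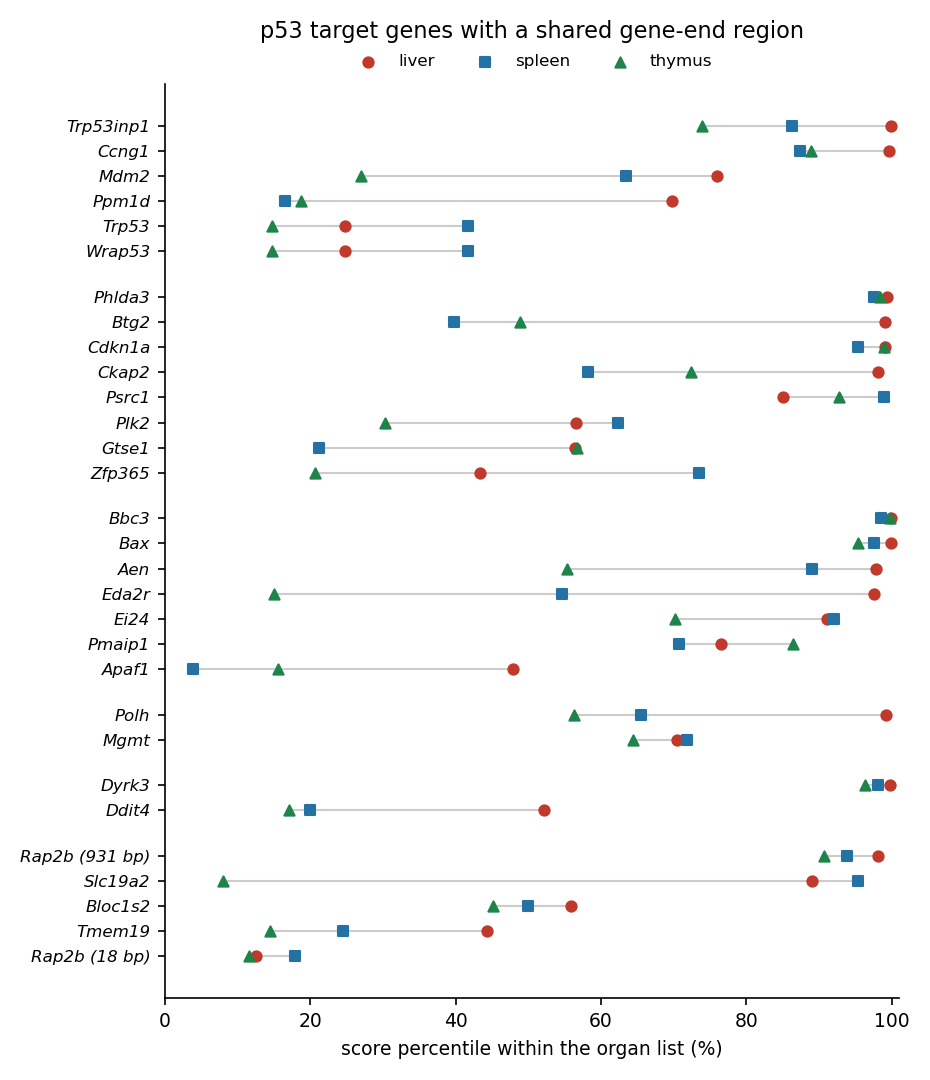
Score percentile (horizontal, percent) of the gene-end regions of the p53 target genes in liver, spleen and thymus, 1 point per organ and region, with a grey line over the range; from top to bottom the blocks are feedback, cell cycle arrest, apoptosis, DNA repair, metabolism, and signalling genes. Bbc3, Bax, Cdkn1a, Phlda3 and Dyrk3 stand above 95 in every organ, while Btg2, Polh and Eda2r are above 97 in liver and under 66 in the others.

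Genes that regulate p53 or feed back on it had a member in 6 of 16 cases. Ccng1, which encodes cyclin G1, stood at 99.6 (liver), 87.3 (spleen) and 88.9 (thymus). Trp53inp1, a stress protein that promotes p53 activity, was at 99.9, 86.3 and 73.8. Both were strong everywhere, with liver highest. Mdm2, the ubiquitin ligase that degrades p53, had 76.0 in liver and 63.5 and 27.0 in spleen and thymus. Ppm1d, a phosphatase that switches the damage response off, had 69.7, 16.5 and 18.8 and was liver-high. The shared promoter of Trp53 and Wrap53 ranked low in all 3 lists, at 24.8, 41.7 and 14.7, with a width of 150 bp.

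Cell cycle genes had a member in 8 of 15 cases. Cdkn1a, which encodes the kinase inhibitor p21, had scores of 40.3 (liver), 31.1 (spleen) and 29.4 (thymus), or percentiles of 99.04, 95.4 and 98.9. Its region, chr17:29090601-29091250, covers the start and the element with its pair of CATG cores shown above. Phlda3, an inhibitor of Akt, had 99.3, 97.6 and 98.4. Both of these regions stood above 95 in each organ. Psrc1, a spindle protein, had liver lowest, with 85.0 in liver and 98.98 and 92.8 in spleen and thymus. Btg2, an antiproliferative factor, was liver-high with 99.1, 39.8 and 48.8, and so was Ckap2, a microtubule-associated protein, with 98.2, 58.2 and 72.3. The remaining 3 (Plk2, Gtse1 and Zfp365) lay between 20.6 and 73.5 in all organs.

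Apoptosis genes had a member in 7 of 24 cases. Bbc3, which encodes the BH3-only protein PUMA, was the strongest member by its lowest percentile, with scores of 51.8 (liver), 33.8 (spleen) and 30.7 (thymus) and percentiles of 99.97, 98.5 and 99.8. Its region spans 2050 bp, chr7:16308301-16310350, the widest at a coding gene. Bax, the pore-forming effector, had 99.9, 97.6 and 95.3. Ei24 had 91.2, 92.0 and 70.2, and Pmaip1, which encodes NOXA, had 76.6, 70.7 and 86.5, with thymus highest. Aen, a nuclease of apoptotic cells, had 97.8, 89.0 and 55.4. Eda2r, a receptor of the tumour necrosis factor family, had 97.5, 54.6 and 14.9. Apaf1, the scaffold of the apoptosome, lay lower with 47.8, 3.84 and 15.6, at a divergent promoter with Ikbip. Thymus ranked lowest of the 3 organs for Bax, Ei24, Aen and Eda2r.

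The repair, metabolism and signalling lists had fewer members. Polh, the polymerase that copies past ultraviolet damage, stood at 99.2 in liver and 65.6 and 56.3 in spleen and thymus, and Mgmt, which removes alkyl groups from guanine, at 70.5, 71.9 and 64.5 (2 of 14 repair genes). Dyrk3, a kinase, had 99.8, 98.1 and 96.3 over a region 1850 bp wide, and Ddit4, an inhibitor of mTORC1, had 52.2, 19.9 and 17.1 (2 of 25 metabolism genes). Among 4 of 24 signalling genes, the small GTPase gene Rap2b had a region 931.5 bp from its start with 98.1, 93.9 and 90.7. A second region 18.5 bp from that start had only 12.5, 17.95 and 11.5. The upstream region of Rap2b was thus strong in every organ and the one at the start weak in every organ.

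The members that ranked highest in all organs were not all p53 targets of the lists. Ordered by the lowest of the 3 percentiles, the top 12 were Bbc3, Phlda3, Gm51651, LOC115487884, Rps19, Dyrk3, Cdkn1a, Bax, Gm31005, Zfp958, Trp53cor1 and Exoc4. Gm51651 had 99.9 (liver), 97.3 (spleen) and 99.4 (thymus) over 1250 bp. LOC115487884, annotated as a small nucleolar RNA gene, had the widest region of all, 2350 bp at chr11:6526501-6528850, with 97.1, 99.2 and 98.9. Rps19, a protein of the small ribosomal subunit, had 98.0, 96.9 and 96.7 at chr7:24884501-24885250. It was the only 1 of 99 ribosomal protein genes with a member (1.01%, near the 1.41% of all coding genes). Trp53cor1, the long noncoding RNA gene upstream of Cdkn1a, had 99.5, 91.8 and 93.4. Zfp958, a zinc finger gene, had 97.7, 93.4 and 91.9 over 1450 bp, and Exoc4, a subunit of the exocyst, 99.2, 91.5 and 95.3. Sp1, the activator that binds GC boxes, had the fifth widest region, 1350 bp, with 99.2, 89.0 and 89.6.

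The largest differences towards liver were at starts of coding genes, all with a midpoint within 100 bp of an annotated start. Vapb, a tether of the endoplasmic reticulum, had scores of 32.6 in liver and 7.80 and 7.21 in spleen and thymus, which are percentiles of 96.0, 4.55 and 1.21. Its lymphoid scores sit at the floor of those lists. Yeats4, a reader of acetylated histones, had 97.0, 15.2 and 1.60, and Snap23, a membrane fusion protein, 97.5, 4.99 and 14.0. Cdt1, which licenses replication origins, had 94.6, 12.3 and 4.91. Sdhaf4 and Sdha, an assembly factor and the catalytic subunit of succinate dehydrogenase, had 90.8, 2.75 and 4.41 and 91.0, 8.16 and 3.16. Gars, the glycyl-tRNA synthetase, had 96.1, 0.0192 and 17.98, the lowest spleen percentile of any member. Arpc1a, a subunit of the Arp2/3 complex, completed the 8 with 93.7, 11.2 and 5.80. All 8 were between 250 and 450 bp wide.

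The largest differences towards the lymphoid organs were mostly at noncoding genes or 3' ends. Gm15610 had scores of 7.72 (liver), 32.7 (spleen) and 26.9 (thymus), or percentiles of 1.42, 98.1 and 92.8. Hsd11b1, which encodes the enzyme that regenerates active glucocorticoid, had a region beyond its 3' end with 1.51, 85.7 and 95.3. Its liver score of 7.74 is near the floor of the liver list, as is the 7.72 of Gm15610. Gm15543 had 4.56, 76.5 and 95.3, and Gm52493 4.69, 82.4 and 86.8. In Gm4644 (11.2, 98.8 and 51.0) and Gm40316 (3.24, 69.2 and 52.95) spleen was the higher of the lymphoid organs. Cox6b2, a testis form of a cytochrome oxidase subunit, had 11.4, 60.8 and 84.6 and is the only coding start among the 8, although its 3' end is nearer. The last was 1700063D05Rik, with 16.5, 82.7 and 63.4.

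Spleen and thymus differed most at a few members. Slc19a2, the thiamine transporter counted with the p53 signalling targets, had 89.1 in liver and 95.4 and 8.05 in spleen and thymus. Vars2, the mitochondrial valyl-tRNA synthetase, had 92.8, 74.0 and 7.88, and Cdc34, a ubiquitin-conjugating enzyme, 97.7, 71.3 and 8.46. Ptp4a1, a phosphatase, had 77.0, 69.3 and 10.3. In these 4, thymus alone was low. Ndufa7, a subunit of respiratory complex I, had 20.5, 87.3 and 22.5 at its 3' end, so spleen alone was high. The opposite order was held by Gnb4 (56.1, 23.1 and 88.1), Gm11941 (54.7, 8.81 and 70.3), Capzb (27.7, 13.6 and 73.6), Gm34016 (54.9, 18.8 and 77.4) and Zfp106 (0.116, 20.9 and 78.2). All 5 of these were at most 150 bp wide.

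Sequence features of the promoter windows differed between the rank groups. Each of the 217 members with a start within 1 kb was given the window of its nearest start, so neighbouring members such as the pair at Actr3 can share a window. The median GC content was 63.0% and the median ratio of observed to expected CpG 0.889, against 52.7% and 0.384 over all 32850 windows. The CpG ratio was 0.942 in liver-high, 0.781 in level and 0.338 in lymphoid-high windows. A ratio of at least 0.6 was found in 118 of 122, 57 of 84 and 2 of 11 windows in that order. Windows that shared at least 20 bases with their region numbered 105 (liver-high), 57 (level) and 1 (lymphoid-high). The lymphoid-high window values thus mostly describe promoter sequence outside the listed regions.

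The p53 response element, allowing 3 mismatches in its 20 bases and no spacer, was present in 26 of the 217 windows (11.98%), against 1.38% of all windows. It stood in 16 of 84 level windows (19.0%), 9 of 122 liver-high windows (7.38%), 1 of 11 lymphoid-high windows (AU040972) and 4 of 11 windows of members in the top 10% of all lists (Bbc3, Gm51651, Rps19 and Cdkn1a). Among windows with a CpG ratio of at least 0.6, it stood in 7 of 57 level (12.3%) and 8 of 118 liver-high windows (6.78%), against 1.27% of all such windows. With at most 1 mismatch there were 6, all in level members, against 0.067% of all windows. These 6 were Cdkn1a, Ccng1, Gtse1, Gm51651, D730003K21Rik and Calhm2, the last 2 named only for this match, and the Calhm2 element lay outside its listed region. Members with an element had median percentiles of 67.9 (liver), 42.7 (spleen) and 42.9 (thymus), and those without had 70.7, 24.3 and 20.2. CATG, then 6 bases of any kind, then CATG occurred in 6 windows (2.76%, against 0.712%), 4 of them also holding an element (Cdkn1a, Gm51651, Arpc2 and Platr7). An element stood in 8 of 27 windows of p53 targets and in 13 of 164 windows of other coding-start members. Of the 26 windows, 23 had their element whole inside the listed region.

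The NRF1 core (GCGCATGC on either strand, which overlaps itself in a perfect palindrome and holds CATG) was found in 48 of the 217 windows (22.1%), against 2.71% of all windows. It stood in 43 of 122 liver-high windows (35.2%), 5 of 84 level windows (5.95%, those of Bax, Tmem19, Trim32, Nudcd2 and the farther region of Actr3) and 0 of 11 lymphoid-high windows. Among windows with a CpG ratio of at least 0.6, the shares were 43 of 118 liver-high (36.4%), 5 of 57 level (8.77%) and 6.15% of all such windows. Members with the core had median percentiles of 87.3 in liver and 17.3 and 15.7 in spleen and thymus, and those without had 66.2, 27.8 and 22.4. Within the bases that a member and its window share, the core was present in 41 of 105 liver-high and 2 of 57 level members. Only 1 lymphoid-high member shared at least 20 bases with its window, and these held no core. Both the core and a p53 element were found in 4 windows (Arpc2, Ndrg3, Trim32 and Morc3, named for this match). In Arpc2 the core lies within the element, so the same bases count for both, and the Ndrg3 element lay outside its listed region. The core stood in 4 of 27 windows of p53 targets (Apaf1, Bax, Polh and Tmem19) and in 44 of 164 of the others.

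**Figure D5:**
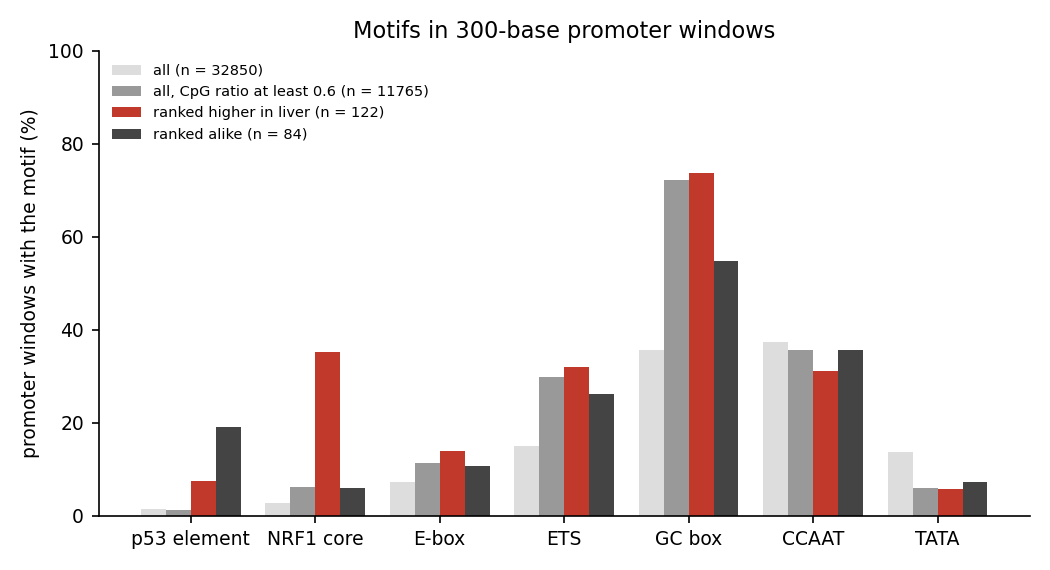
Percent of promoter windows holding each of 7 motifs (vertical axis), for all 32850 windows, the windows with a CpG ratio of at least 0.6, and the windows of liver-high and level members. The p53 element is at 19.0% in level and 7.38% in liver-high windows, and the NRF1 core at 5.95% and 35.2%, while the GC box of liver-high windows (73.8%) is near that of CpG-rich windows (72.3%).

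The other motifs were read on both strands in the same windows. The ETS motif CCGGAA was in 61 windows (28.1%, against 14.9% of all and 29.8% of CpG-rich windows) and the GC box GGGCGG in 141 (65.0%, against 35.7% and 72.3%). The E-box CACGTG was in 26 (11.98%, against 7.15% and 11.3%). The cyclic AMP response element TGACGTCA was in 7 (3.23%, against 1.79% and 3.65%). CCAAT was in 72 (33.2%, against 37.4% and 35.7%), the TATA box TATAAA in 15 (6.91%, against 13.6% and 5.98%) and the AP-1 site TGANTCA in 11 (5.07%, against 7.81% and 3.46%). For all 7 of these motifs the share in member windows was closer to that of CpG-rich windows than to that of all windows. A match describes letters and does not show that a factor is bound.

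Several lists of cell type markers had no member. No region of the set lay at an end of any of 19 hepatocyte, 16 T cell, 12 B cell or 12 endothelial and stromal markers, nor of 21 immediate early or 19 clock genes. With a member at only 1.41% of coding genes, a list this short is likely to hold none, so these zeros say little. Of 23 housekeeping controls only Sdha had a member, and of 28 chromatin regulators only Eed, a subunit of Polycomb complex 2, with 60.3, 53.6 and 6.74. Genes of the mitochondrial ribosome and respiratory chain had one in 9 of 183 cases (4.92%, against 1.41% of coding genes). Their regions ranked low, with medians of 29.7 (liver), 11.7 (spleen) and 17.4 (thymus), and 3 were liver-high and 2 lymphoid-high. Mrpl32, with the highest liver percentile among the 9, shares its member with the proteasome gene Psma2, at 96.6, 72.9 and 15.8. The translation factor gene Eif4h had 58.7, 7.57 and 1.77. Zinc finger genes had one in 7 of 465 cases (1.51%, near the share of all coding genes), among them Zbtb41 (99.2, 53.8 and 32.5) and Zfp750 (64.2, 79.7 and 92.0). Of 53 splicing factor genes none had one, which is not unusual at the share of all coding genes.

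Of genes of any kind, 0.885% had a member. Of 1193 microRNA genes 2 had a member within 1 kb, Mir7070 with 72.4, 51.9 and 30.0 and Mir3077 with 60.8, 34.9 and 2.39. Of 541 genes with a tRNA or small nucleolar RNA symbol 4 did, all tRNA genes over 2 regions; this is 0.98% of the 408 annotated tRNA genes. One of these regions lies at n-TAagc8 with 63.0, 75.2 and 89.1, and the other near 3 tRNA genes including n-TStga1 with 24.8, 51.2 and 69.7. Thymus ranked highest in both.

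Besides Rap2b, 2 genes had 2 members each. At Actr3, a core subunit of Arp2/3, the region 98.5 bp from the start had 55.3, 6.57 and 30.5, and the one 801.5 bp from it had 56.9, 66.7 and 59.1. At Eng, a coreceptor for transforming growth factor beta, the start had 21.5, 27.1 and 49.6, and the region at its 3' end, which it shares with Fpgs, 66.9, 43.6 and 40.6. Another listed region lay within 10 kb of 50 members (13.7%) and of 181 distal regions (11.6%).

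The members nearest to the limit of 1 kb were at Gm20758 (999.5 bp, with 53.5, 80.4 and 59.7) and 4933404K08Rik (991.5 bp, with 79.6, 56.5 and 85.2). The nearest regions outside it were at Esco2 (1006.5 bp, with 22.7, 84.3 and 57.5) and Chchd5 (1025.5 bp, with 33.5, 39.996 and 41.7).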

How the data were processed

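Scores were deposited by the authors in 3 region lists without a header, 1 per organ, and were used only as ranks. The build mm10 comes from the submitters' processing notes; the sources used here name no aligner or region caller and do not say how input or IgG was handled. Members and gene lists were chosen with earlier results of these data known. Percentiles were (average rank minus 0.5) over the list length. Of the gene list entries, 283 of 285 symbols matched a coding gene. Genes named are list genes with a member, the 12 highest lowest percentiles, the 8 largest differences each way between liver and lymphoid organs, the 5 each way between spleen and thymus, the 5 widest, genes with 2 members and the edge cases; others are said to be named after their values were seen. The NRF1 sequences were also picked after the values were seen. Motifs were searched in RefSeq promoter windows, none on chromosome 18, where 12 members lie. The motif search was tested on simulated data. Python 3.11.15, pandas 2.3.3 and scipy 1.17.1 were used. The result for 1 gene list is not reported here.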

Additional observations from a re-analysis of the deposited data

How the results depend on the processing

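With 1 list per organ, replicate error, the effect of irradiation and read depth could not be examined, and no test was run. No paired analysis was possible because the lists hold no values per library. Of 127 alternative values 73 stayed within 1.5 times a count or within the binomial interval of a median or share, and 54 moved. A change of sign was possible only for the liver minus lymphoid median, which stayed positive in every setting. The spleen and thymus medians crossed the middle of their lists under the stricter score. The cause was not tested beyond what each setting does by construction (fewer or more regions).

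A score of at least 10 in all 3 lists removes regions near the floor, and with them the lowest percentiles of each list. It left 205 members, with medians of 58.5 in spleen and 56.3 in thymus, so that members no longer lay below the middle of these lists, a liver minus lymphoid median of 4.86 points (-8.17 in distal regions under the same rule), 61 liver-high members (29.8%), 56 in the top 10% of liver, 27 higher in spleen than thymus and 20 the other way.

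With a window of 500 bp the spleen and thymus medians were 26.7 and 25.1, the liver minus lymphoid median 29.6, the top 10% held 13 members in spleen, 13 in thymus and 8 in all 3, 27 were lymphoid-high, 32 higher in spleen and 21 in thymus. With 2 kb these were 48.6 and 43.8, 6.96, 54, 50 and 20, and 94 lymphoid-high; the apoptosis list then had 11 genes, signalling 7, clock 1, ribosomal 2, splicing 1, microRNA 5 and tRNA and snoRNA 8. With coding genes only the medians were 26.0 and 24.3, the difference 29.1, the top 10% held 12 in spleen and 16 in thymus, and 21 were lymphoid-high. Percentiles taken within the common regions alone gave medians of 27.0 in spleen and 26.1 in thymus.

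A percentile of 95 gave 54 members in liver, 15 in spleen, 16 in thymus and 8 in all 3, and one of 80 gave 56 in spleen, 54 in thymus and 22 in all 3. A difference of 15 points gave 72 lymphoid-high members, 91 higher in spleen and 70 in thymus, and one of 40 points 24, 18 and 13. The p53 element was in 5.53% of windows with at most 2 mismatches, and the NRF1 core followed by GC in 9.22%. The CpG-rich comparison, the shared-base comparison and the 8-base core were chosen after seeing the data.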
